A study of Homo sapiens with 6 samples.

Results

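The 4 inhibitor of DNA binding genes (ID1, ID2, ID3 and ID4) and the 3 E protein genes whose products they bind (TCF3, TCF4 and TCF12) were examined in EJ/T24 cells after FOXA1 transfection. These 7 genes, of 19775 genes named on the array, were read by 35 probe sets of 54613. They were every probe set that the platform annotation gives exactly 1 symbol, where that symbol was among the 7. The family was selected on the signals of ID2, which were higher in FOXA1 transfected cells on these same arrays, so the signals of these genes in the FOXA1 and control arrays are given as a description, with no p-value, and a call on a member counts as no test of it. EJ/T24 cells are a long established line from an invasive human bladder carcinoma. Transcript levels were measured on HG-U133 Plus 2.0 arrays, with 3 arrays of cells transfected with a FOXA1 construct and 3 of cells transfected with an empty vector (control). Both groups received 24 μg of DNA with a Lipofectamine reagent per 90 mm dish at 70% confluence, in medium with fetal calf serum. The labels name the empty vector pUC19, whereas the methods describe a pcDNA3 vector for FOXA1, so the plasmid backbone may differ between the groups. The methods describe no selection of cells after transfection. Each array may thus average cells that did and did not take up the plasmid. Fewer expressing cells and less RNA per cell therefore cannot be told apart. The methods describe the transfections as done in triplicate, by the dish, but the labels do not tie each array to a dish. The spread given, and any p-value resting on it, is therefore that between these arrays, which may be partly technical.

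Background for the family is as follows. E proteins are basic helix-loop-helix transcription factors that bind the E box, alone or together with a tissue specific partner such as MYOD1 or NEUROD4. ID proteins carry the helix-loop-helix but lack the basic part that touches DNA, so an E protein held by an ID protein does not bind. ID genes are known as immediate targets of bone morphogenetic protein (BMP) signaling through SMAD1, SMAD5 and SMAD9, and their products are known for holding back differentiation and for sustaining the cell cycle. TCF3 encodes E12 and E47, TCF4 encodes E2-2 and TCF12 encodes HEB. This TCF4 is not the WNT effector of the same older name.

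The transfected factor binds DNA through a forkhead domain. The stretches before the start sites of ID2 and ID1, both read well over the median signal, were picked on the signals of these same arrays. FOXA1 transfected arrays were all above control arrays at the brighter ID2 probe set, against 10.5% of all probe sets. They were all below at the ID1 probe set, against 5.86%. The ID2 value also chose the family, and its other probe set overlapped. The 95% interval of the ID1 log2 difference ran from -0.35 to 0.02. Whether the motifs bear on these differences was not tested. The sequences are the 250 bases upstream of each start site from RefSeq (build GRCh38.p14), on the plus strand at chr2:8681806-8682055 for ID2 and chr20:31605039-31605288 for ID1. Capitals mark the E box (CANNTG) and the forkhead core (TATTTAC or TGTTTAC), each searched on both strands.
ID2: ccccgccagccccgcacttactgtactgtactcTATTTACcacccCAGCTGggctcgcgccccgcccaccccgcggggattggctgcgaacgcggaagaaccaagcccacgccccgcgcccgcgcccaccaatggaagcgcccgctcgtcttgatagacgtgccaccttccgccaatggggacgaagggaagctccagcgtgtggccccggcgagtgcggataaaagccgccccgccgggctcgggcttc
ID1: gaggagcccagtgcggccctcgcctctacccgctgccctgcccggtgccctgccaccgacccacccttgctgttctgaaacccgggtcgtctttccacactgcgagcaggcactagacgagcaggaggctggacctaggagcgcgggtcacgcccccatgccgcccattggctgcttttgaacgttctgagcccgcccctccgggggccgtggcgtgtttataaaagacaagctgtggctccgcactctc
The ID2 stretch held TATTTAC, starting 217 bases before the start site, and the E box CAGCTG, starting 205 bases before it, with no overlap between them. The ID1 stretch held neither in the forms searched. It did hold tgtttat, which differs from TGTTTAC only in its last base, so this contrast with ID2 depends on the forms chosen. Of 35116 stretches of this length in the RefSeq table, 5.27% held a forkhead core and 61.8% an E box. Among the other members, the ID4 stretch held an E box (CAGCTG, from 21 bases upstream), and those of ID3 and TCF3 held neither motif. TCF4 has 10 start sites in the table, of which 2 had a forkhead core and 5 an E box, and TCF12 has 5, of which 2 had an E box and 0 a forkhead core. These matches describe letters only, and binding of FOXA1 was not measured here.

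The values are MAS5 signals, which are linear intensities per probe set that the authors scaled within each array. The median signal was 14.4 to 17.5 in FOXA1 transfected and 12.3 to 16.1 in control arrays. Signals under 3.5, the 20th percentile of all signals, are pointed out here as very low. They still entered the main fit and the counts of signs and overlaps as they were. A floor at 3.5 was used only as another setting. FOXA1 itself was at 38.9, 34.8 and 31.9 in FOXA1 transfected arrays and 21.8, 24.4 and 21.0 in control arrays at its brighter probe set, with no overlap. Its other probe set had 2.5, 6.8 and 6.6 in FOXA1 transfected and 8.0, 7.3 and 5.9 in control arrays. Whether the construct carries the stretches these probe sets read is not stated, so they check the labels only in part. As a measure of RNA quality, the 3′ probe set of ACTB was divided by its 5′ probe set, which gave 2.10 to 2.52 in FOXA1 transfected and 1.54 to 1.92 in control arrays. The two-sided exact permutation p was 0.1, and 3 arrays against 3 allow none smaller. The same ratio for GAPDH overlapped, at 0.898 to 0.941 in FOXA1 transfected and 0.888 to 0.905 in control arrays (exact permutation p = 0.3). The part of RNA quality in the differences given here was not tested. Of 14 urothelial and epithelial markers, the keratin KRT18 was bright on all arrays, at 2358.5 to 2543.9 in FOXA1 transfected and 2080.4 to 2405.1 in control arrays. The uroplakin UPK3A and the keratin KRT19 were under 3.5 on all arrays, and CDH1 was under 3.5 on all but 1. The groups separated at 2 of the 14, both with FOXA1 transfected arrays above: the uroplakin UPK1B at 30.4, 20.1 and 25.5 in FOXA1 transfected and 18.3, 16.7 and 9.6 in control arrays, and the keratin KRT7 at 33.8, 24.0 and 24.5 in FOXA1 transfected and 20.9, 23.8 and 18.4 in control arrays. Of 4 mesenchymal markers, VIM and ZEB1 were bright and overlapped, while the other two separated with FOXA1 transfected arrays below. These were CDH2, at 396.8, 348.8 and 339.2 in FOXA1 transfected and 518.3, 513.2 and 452.9 in control arrays, and FN1, at 20.7, 5.9 and 19.5 in FOXA1 transfected and 25.3, 22.1 and 26.3 in control arrays. Of 9 measured markers of leukocytes, endothelium, muscle and red cells, summed signals were 113.3 to 148.1 in FOXA1 transfected and 92.4 to 143.4 in control arrays, and CD14 was under 3.5 on all arrays. The groups separated at 1 of the 9, PECAM1, at 42.8, 54.9 and 52.0 in FOXA1 transfected and 30.5, 35.8 and 42.2 in control arrays, and HBB, also over the median, overlapped. Over all genes at their brightest probe set, the groups separated at 19.7%. The shares were 14.3% of the urothelial and epithelial markers, 50% of the 4 mesenchymal markers and 11.1% of the markers of other cells. No marker passed limma over all probe sets, and their part in the differences of the ID and E protein genes was not tested.

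ID2 was the member in which the groups stood farthest apart relative to the spread between arrays. At probe set 201565_s_at its signal was 191.6, 181.3 and 175.9 in FOXA1 transfected arrays and 88.9, 107.7 and 102.1 in control arrays. The lowest FOXA1 transfected array lay well above the highest control array, and the spread within either group was small beside the gap. The family was chosen for this rise, so the gap describes the choice. The means were 183 ± 7.98 and 99.6 ± 9.65 (SD, n = 3 arrays each, FOXA1 transfected and control), a ratio of geometric means of 1.84 and a log2 difference of 0.88 (SE 0.11). Signed values subtract control from FOXA1 transfected arrays, taking the labels as given. The study's own table of changed genes gives every listed probe set the opposite sign to the one these arrays give. FOXA1 at its brighter probe set ran the way the labels say, by 0.65 (SE 0.23) on the log2 scale. That difference did not pass limma over all probe sets (adjusted p = 0.307). FOXA1 transfected arrays were all above control arrays at 10.5% of all probe sets. The other FOXA1 probe set, which was dim, ran the other way, by -0.54 (SE 0.64), so FOXA1 RNA on these arrays is a weak check of the labels. The methods also describe a western blot for FOXA1 protein on a part of the transfected cells. That blot does not show which array holds which group. The labels are followed here, and if the groups were turned, each sign would turn too.

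The second ID2 probe set, 201566_x_at, showed a smaller difference. Its signal was 55.4, 44.7 and 26.4 in FOXA1 transfected arrays and 29.2, 35.9 and 29.7 in control arrays. FOXA1 transfected array 3 lay below all 3 control arrays, and the others lay above them. The log2 difference was 0.36 (SE 0.27), with a 95% interval of -0.25 to 0.96. A further probe set, 213931_at, is annotated to both ID2 and its pseudogene ID2B, so it falls outside the rule and names neither gene. It had 55.0, 31.0 and 32.6 in FOXA1 transfected and 26.6, 29.9 and 15.7 in control arrays, without overlap, and a log2 difference of 0.72 (SE 0.31). Both 201566_x_at and 213931_at thus had log2 differences above 0, as did 31810 of all 54613 probe sets. The groups overlapped at 201566_x_at but not at 213931_at, and FOXA1 transfected arrays were all above control arrays at 10.5% of all probe sets. The brighter ID2 probe set is not counted with these, since its value chose the family. As 201566_x_at and 213931_at are annotated to ID2 and come from the same arrays, they are no independent check of its difference either.

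ID1, a well known target of BMP signaling, ran the other way. Its only probe set, 208937_s_at, had signals of 719.1, 722.3 and 713.6 in FOXA1 transfected arrays and 865.2, 824.8 and 729.7 in control arrays. The FOXA1 transfected arrays were close to each other and all below the control arrays, of which control array 3 was nearly as low. The log2 difference was -0.16 (SE 0.08, 95% interval -0.35 to 0.02). ID3, which binds the same E proteins, had 246.7, 286.2 and 315.1 in FOXA1 transfected arrays and 258.5, 293.7 and 205.6 in control arrays at 207826_s_at, its only probe set. The groups overlapped, and the log2 difference of 0.17 (SE 0.14, 95% interval -0.13 to 0.47) turned to -0.01 after median centring of the arrays.

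ID4, known from neural progenitors, had low signals, and 3 of its 5 probe sets lay at or under the median probe set. At 209293_x_at, the brightest, it had 21.0, 17.0 and 17.7 in FOXA1 transfected arrays and 18.5, 13.3 and 14.9 in control arrays, with overlap and a log2 difference of 0.26 (SE 0.32). At 229386_at it had 8.8, 8.1 and 11.7 in FOXA1 transfected arrays and 6.4, 3.5 and 7.8 in control arrays. These did not overlap, but all lay at the dim end of the array, and the 95% interval of the log2 difference of 0.75 ran from -0.49 to 1.99. The other 3 ID4 probe sets overlapped, and 209292_at had a control array at 0.2, under the 20th percentile. Its log2 difference of 0.98 turned to -0.10 with a floor at the 20th percentile. A change in ID4 was not detectable at these signals.

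**Figure D1:**
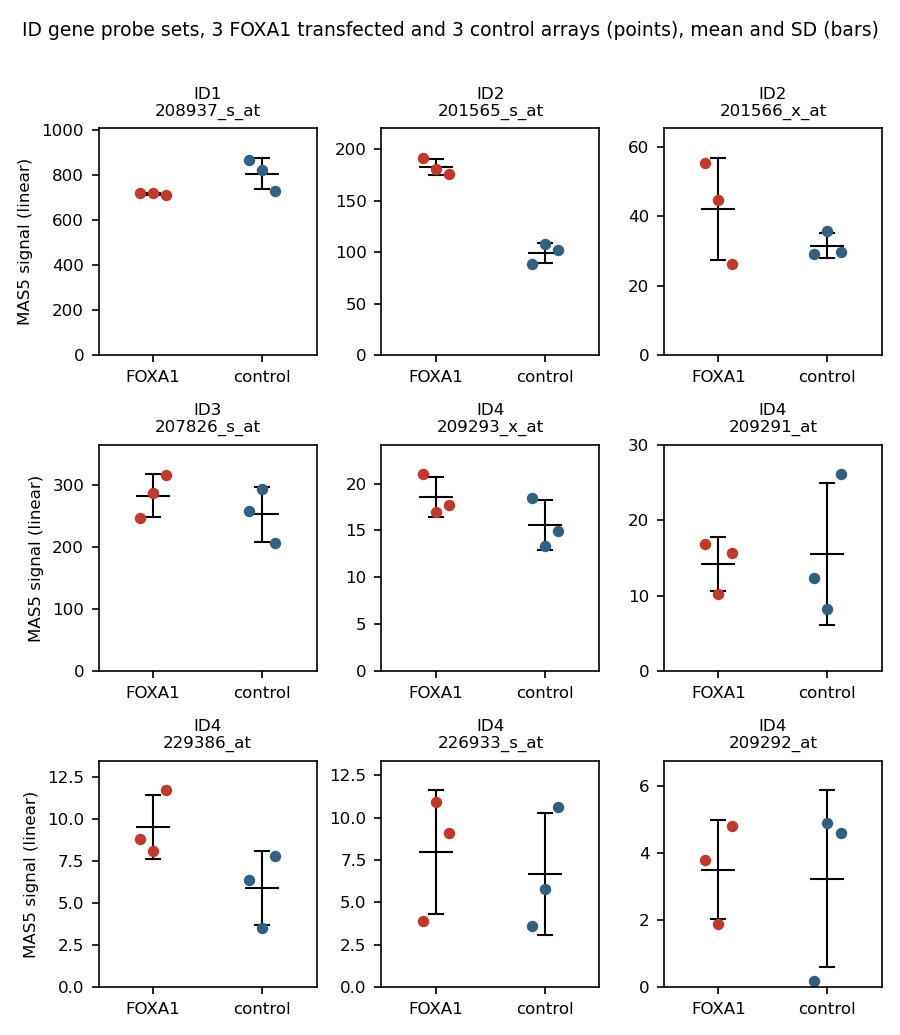
MAS5 signal (linear, each panel with its own axis from 0) at the 9 probe sets of ID1 to ID4, with a point for each of 3 FOXA1 transfected (left) and 3 control (right) arrays, a line for each mean and an SD bar. At ID2 201565_s_at the FOXA1 transfected arrays lie between 175.9 and 191.6, all above the control arrays, while at ID1 they lie between 713.6 and 722.3, all below the control arrays.

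The E proteins were read by 26 probe sets, and at 0 of these did the groups separate, against 16.4% of all 54613 probe sets. TCF12, which encodes HEB, had 562.4, 582.6 and 505.1 in FOXA1 transfected arrays and 639.5, 672.9 and 536.0 in control arrays at its brightest probe set, 208986_at. The groups overlapped, and the array numbered 3 was the lowest of both groups. The log2 difference was -0.16 (SE 0.10). At 238041_at TCF12 had 103.9, 104.0 and 126.6 in FOXA1 transfected arrays and 107.2, 106.4 and 114.2 in control arrays, a log2 difference of 0.02 (SE 0.12) that turned to -0.16 with median centring. Its remaining 2 probe sets were dim, with log2 differences of 0.61 (SE 0.71) and -0.09 (SE 0.48).

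TCF3, the source of E12 and E47, is read by 14 probe sets that did not move together. At 213811_x_at, the brightest, it had 319.7, 326.1 and 319.9 in FOXA1 transfected arrays and 368.4, 331.7 and 298.4 in control arrays. The FOXA1 transfected arrays were nearly equal and lay inside the range of the control arrays (log2 difference -0.04, SE 0.09, 95% interval -0.25 to 0.17). At 209153_s_at the values were 273.9, 257.7 and 287.6 in FOXA1 transfected arrays and 277.5, 315.3 and 292.7 in control arrays, a log2 difference of -0.11 (SE 0.09). At 209152_s_at they were 104.7, 110.4 and 125.3 in FOXA1 transfected arrays and 119.2, 72.4 and 74.1 in control arrays, where control array 1 lay among the FOXA1 transfected ones (log2 difference 0.39, SE 0.19). The wider differences of TCF3 were at its dimmer probe sets. At 202648_at the signals were 18.7, 45.3 and 24.5 in FOXA1 transfected and 20.4, 14.5 and 11.3 in control arrays, where FOXA1 transfected array 2 stood apart (log2 difference 0.88, SE 0.38). At 228052_x_at the signals were 23.1, 17.3 and 35.3 in FOXA1 transfected and 12.2, 7.1 and 20.9 in control arrays (log2 difference 0.99, SE 0.45). At 216647_at they were 6.5, 3.2 and 18.5 in FOXA1 transfected and 15.5, 27.1 and 15.2 in control arrays (log2 difference -1.35, SE 0.61), so that the extremes of this gene have opposite signs.

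TCF4, which encodes E2-2, had group means that lay close together at its brighter probe sets. At 212386_at it had 179.3, 142.1 and 175.0 in FOXA1 transfected arrays and 184.9, 147.5 and 173.2 in control arrays, with array 2 lowest in both groups and a log2 difference of -0.03 (SE 0.13, 95% interval -0.31 to 0.25). At 213891_s_at the difference was 0.01 (SE 0.14) and at 203753_at it was -0.00453 (SE 0.16). Over the 7 TCF4 probe sets brighter than the median the log2 differences ran from -0.27 to 0.08, and the dim 228837_at had 0.77 (SE 0.82). Of the 18 E protein probe sets over the median signal, 16 had log2 differences under 0.4 in size, and 8 lay above 0 and 10 below.

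**Figure D2:**
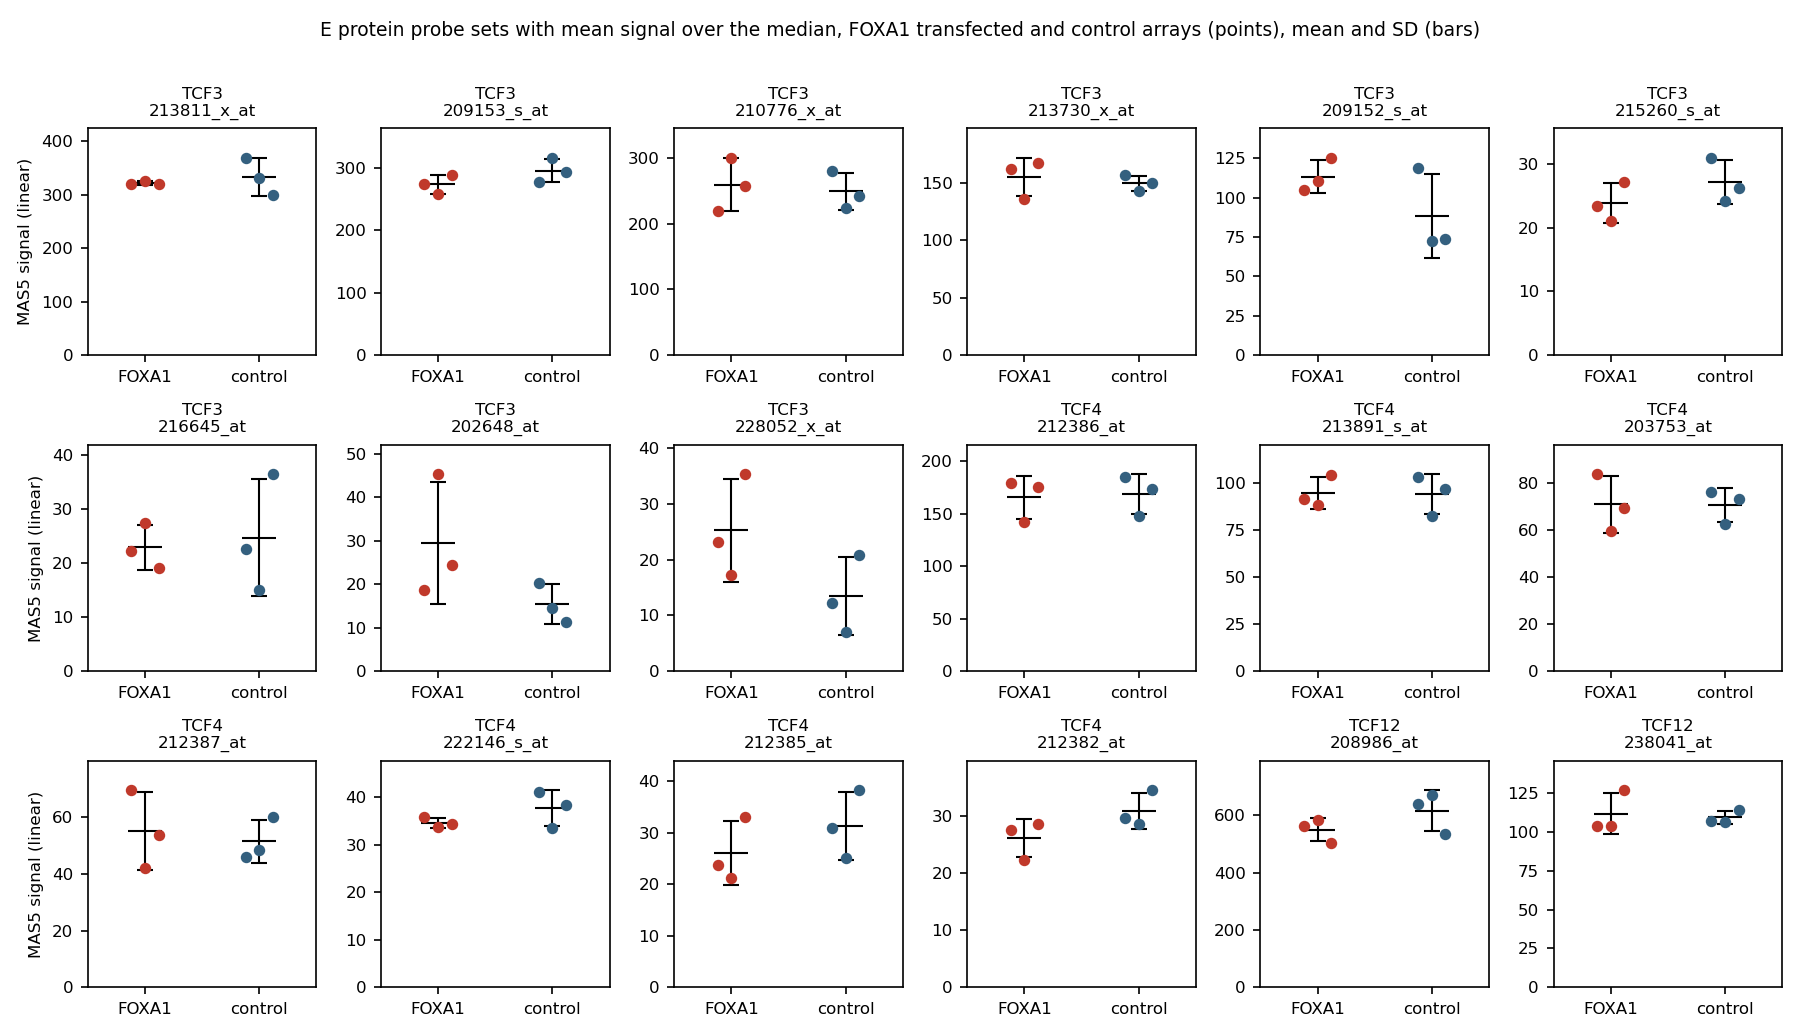
MAS5 signal (linear, each panel with its own axis from 0) at the 18 E protein probe sets whose mean signal is over the median, with a point for each of 3 FOXA1 transfected (left) and 3 control (right) arrays, a line for each mean and an SD bar. The groups overlap at all 18, and at TCF4 212386_at array 2 is the lowest of both groups, with 142.1 among FOXA1 transfected and 147.5 among control arrays.

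Across the 35 probe sets of the family, the log2 difference was above 0 in 22 and below 0 in 13, with a median of 0.05, against a median of 0.08 over all probe sets. FOXA1 transfected arrays were all above control arrays at 2 (201565_s_at of ID2 and 229386_at of ID4), against 10.5% of all probe sets, and all below at 1 (ID1), against 5.86%. In the fit over all probe sets (limma, Benjamini-Hochberg adjusted p under 0.05), 1 of the 35 was called, 201565_s_at of ID2. As the family was chosen for this value, the call describes the choice and supports nothing. The call was lost after median centring, with a floor at the 20th percentile, without the intensity trend of the fit, and after leaving out any array but FOXA1 transfected array 3. Of all probe sets 0.0586% were called, and 0.0385% were called as higher. The ID genes had 8 of 9 probe sets above 0 (median 0.27) and the E proteins 14 of 26 (median 0.02), against 31810 of all 54613. Of the 8, 5 read ID4, which had low signals, and 2 read ID2, which chose the family. Probe sets of the same gene are not independent, so the 8 do not show a rise across the ID genes. Median centring, which moved the median of all probe sets to -0.10, or quantile normalization turned the sign at 7 of the 35 probe sets, among them ID3 and 209291_at of ID4, but at no probe set of ID1 or ID2. Signals at 11 of the 35 lay at or under the median probe set, and their intervals were wide.

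**Figure D3:**
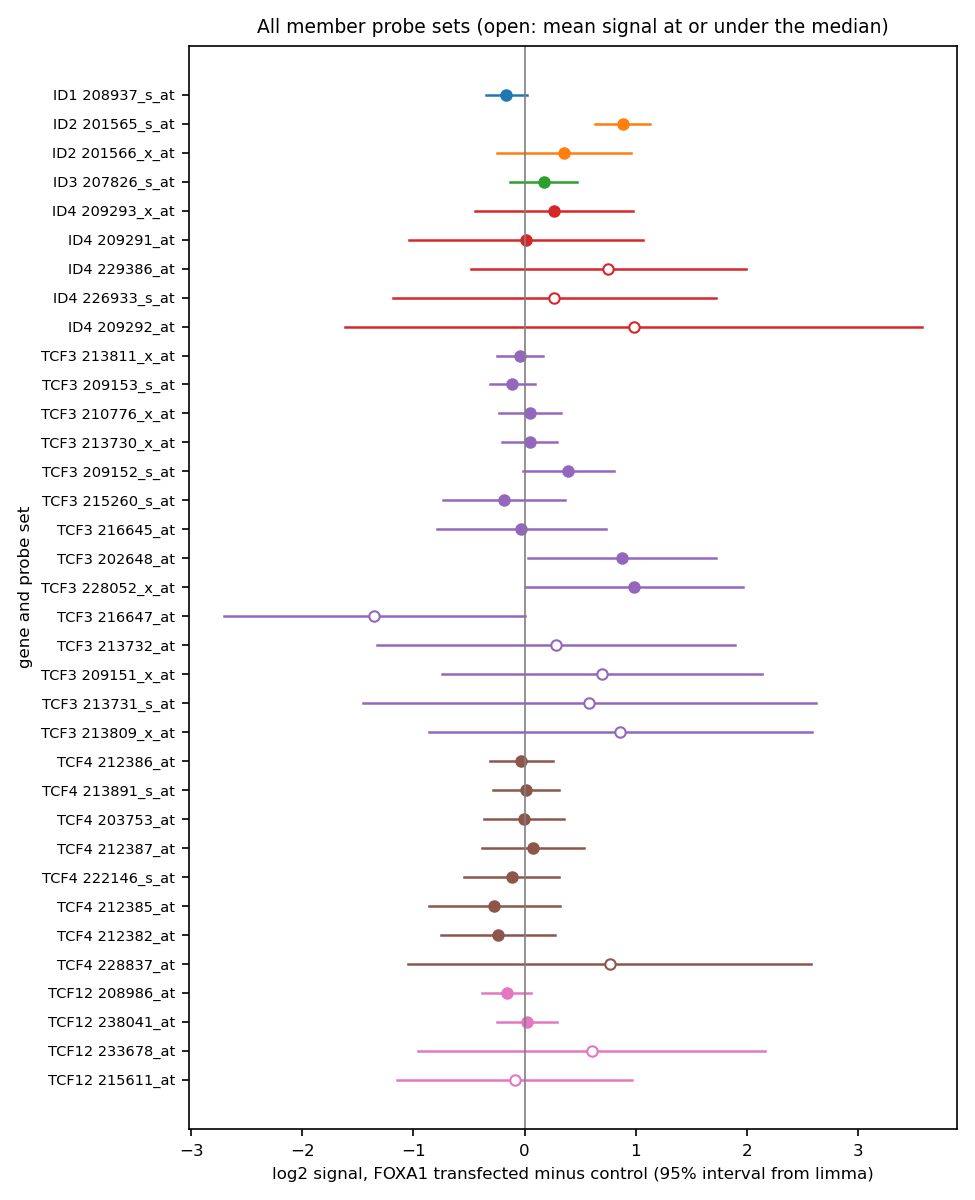
Difference in log2 MAS5 signal, FOXA1 transfected minus control, at all 35 probe sets of the 7 genes, with points for the fitted value and lines for the 95% interval, coloured by gene and open where the mean signal was at or under the median. ID2 201565_s_at lies at 0.88 with a narrow interval, the bright TCF4 and TCF12 probe sets lie near 0, and the widest intervals belong to dim probe sets such as ID4 209292_at.

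Genes whose pattern over the 6 arrays was most like that of ID2 (201565_s_at) were sought among 22626 probe sets with 1 symbol and a mean signal over the median. The 5 with the highest Pearson r of log2 signals were CITED4, a co-regulator that binds CREBBP and EP300 (r = 0.997), CORO1B, an actin binding coronin (r = 0.996), CALR, the chaperone calreticulin (r = 0.993), the proteasome subunit PSMA1 (r = 0.991) and WDR93 (r = 0.989). With 6 arrays that fall into 2 groups, such values mostly repeat the difference between the groups, and 172 probe sets had r over 0.95. CALR had 808.1, 811.6 and 804.6 in FOXA1 transfected arrays and 580.6, 631.1 and 595.2 in control arrays, a log2 difference of 0.42 (SE 0.07). None of these 5 was a called probe set (adjusted p from limma of 0.0806 for CALR, the smallest of them, and 0.349 for PSMA1, the largest). Among the members, the r with ID2 was 0.56 for its other probe set, 0.39 for ID3 and -0.79 for ID1, and between -0.66 and 0.62 for the E protein probe sets over the median.

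Of the genes around this family, 98 of the 105 on 4 lists were measured at a probe set with 1 symbol. At the brightest probe set of each, 0 of the 98 passed limma over all probe sets, against 0.0961% of all 19775 genes, and 16 had an unadjusted p under 0.05, against 2909 of the 19775 genes, a similar share. Among 19 genes of BMP signal, which induces ID transcription, 9 lay above 0 and 10 below (median -0.07). SMAD9, a SMAD that BMP receptors activate, had 124.8, 146.0 and 184.0 in FOXA1 transfected arrays and 224.5, 243.3 and 204.2 in control arrays, so that its log2 signal differed by -0.58 (SE 0.14, limma adjusted p = 0.17). SMAD1 had 862.4, 876.8 and 908.0 in FOXA1 transfected arrays and 1032.3, 1151.6 and 1077.7 in control arrays, which is -0.30 on the log2 scale (SE 0.08, limma adjusted p = 0.178), and its other 2 probe sets over the median had -0.21 and -0.30, also without overlap. The BMP receptor ACVR1 lay the other way, at 285.9, 284.8 and 289.0 in FOXA1 transfected arrays and 241.1, 237.4 and 229.8 in control arrays (log2 difference 0.28, SE 0.08, limma adjusted p = 0.247). BMP2, a ligand, was under 3.5 on all control arrays, at 5.6, 11.0 and 2.9 in FOXA1 transfected and 0.7, 1.9 and 1.3 in control arrays. In these cells the bright BMP genes with the smallest p thus did not share a direction, and their separation between groups was not past the threshold.

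Among 24 other partners and regulators of ID and E proteins, 13 lay above 0 and 11 below, with a median near 0 (0.00489). ELK1, an ETS factor of the kind that ID proteins can bind, had 377.8, 324.7 and 319.5 in FOXA1 transfected arrays and 234.9, 206.8 and 195.0 in control arrays at 203617_x_at. The groups were far apart, with a log2 difference of 0.68 (SE 0.11, limma adjusted p = 0.059). Its other probe set over the median overlapped, with a difference of 0.16 (SE 0.20). RBL2, a pocket protein of the RB family, which ID2 binds, had 350.4, 469.8 and 238.5 in FOXA1 transfected arrays and 502.0, 788.5 and 535.2 in control arrays (log2 difference -0.81, SE 0.22, limma adjusted p = 0.209). RUNX1T1, a corepressor of E proteins, had a log2 difference of 0.60 (SE 0.26), and WDR48, a cofactor of the USP1 enzyme that stabilizes ID proteins, had 0.33 (SE 0.15), with neither past the threshold.

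Of 20 genes described as E protein targets, 14 lay above 0 and 6 below (median 0.25). PTCRA, the pre-T cell receptor chain, had a log2 difference of 0.66 (SE 0.17, limma adjusted p = 0.195) at its brightest probe set and -0.33 and 0.46 at others. SOCS3, an inhibitor of cytokine signaling, had 141.0, 216.4 and 185.3 in FOXA1 transfected arrays and 248.5, 270.1 and 245.0 in control arrays (log2 difference -0.51, SE 0.14, limma adjusted p = 0.21), and its other 2 probe sets over the median had 0.64 and -0.36. The cell cycle inhibitor CDKN2A had 551.6, 651.9 and 573.7 in FOXA1 transfected arrays and 478.5, 520.3 and 505.4 in control arrays (log2 difference 0.24, SE 0.09, limma adjusted p = 0.33), and CDKN2B had 0.50 (SE 0.25). The groups separated at this CDKN2A probe set, but the difference did not pass the threshold, and at its other probe set over the median they overlapped (log2 difference 0.11, SE 0.09). Of 35 tissue specific partners of E proteins, 25 lay above 0 and 10 below (median 0.27), but only 12 had all 6 arrays over the 20th percentile. MESP2, a mesoderm factor, had 60.0, 67.8 and 58.6 in FOXA1 transfected arrays and 40.5, 36.0 and 57.9 in control arrays (log2 difference 0.50, SE 0.20, limma adjusted p = 0.372). NEUROD4, OLIG3 and TAL2, the other 3 with the smallest p, lay at or under the median signal.

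**Figure D4:**
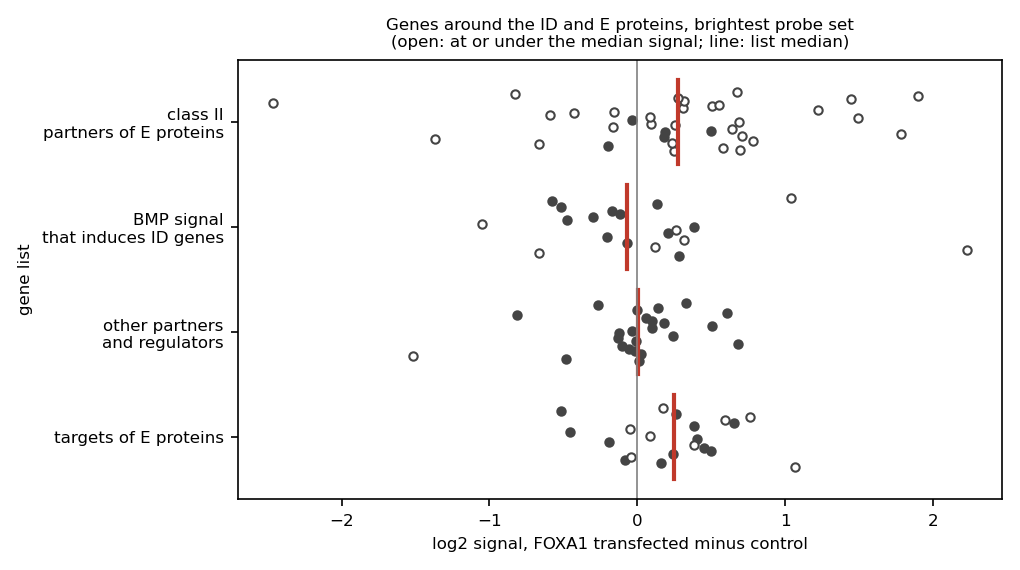
Difference in log2 MAS5 signal, FOXA1 transfected minus control, for the 98 measured genes of 4 lists at their brightest probe set, with a point for each gene, open where the mean signal was at or under the median, and a line for the list median. The medians are 0.27 for class II partners of E proteins, -0.07 for BMP signal, 0.00489 for other partners and regulators and 0.25 for targets of E proteins, against 0.07 over all genes, and none of the 98 passed limma over all probe sets.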

How the data were processed

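Total RNA from 3 FOXA1 transfected and 3 control samples, hybridised to 6 HG-U133 Plus 2.0 arrays, had been scanned and summarised in Affymetrix software, and the intensity values deposited by the authors are Microarray Analysis Suite 5 (MAS5) signals on a linear scale, 1 per probe set and array. The methods then name RMA log2 conversion and SAM, which these values precede. Groups and replicate numbers came from the sample titles. Of 54675 probe sets, 62 array controls were left out. Log2 was taken after replacing 25 zero signals with 0.1, and the groups' log2 signals entered limma (version 3.58.1, R 4.3.3; lmFit, eBayes with an intensity trend, two-sided, Benjamini-Hochberg over 54613 probe sets, threshold 0.05), tested on simulated data. SAM was not run. Symbols came from the platform annotation: 41091 probe sets had 1 symbol, 1801 several and 11721 none. Promoter sequences are from RefSeq, and all 7 members matched by symbol. Genes named are all members, list genes past the threshold with up to 4 more of smallest p, and 5 genes of most similar pattern. FOXA1, ID2B, CREBBP, EP300, MYOD1, the array control genes ACTB and GAPDH, and markers were named beside these. Members and lists were chosen with earlier results of these data known. Other settings were no intensity trend, quantile normalization, median centring, a floor at 3.5, dim probe sets (mean at or under 14.5) left out, _x_at probe sets left out, a replicate block, the median over a gene's probe sets, and each array left out. The number of arrays limits the precision.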

Additional observations from a re-analysis of the deposited data

How the results depend on the processing

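The ID2 difference at 201565_s_at kept its sign in all 13 other settings, with log2 values from 0.70 (median centring) to 0.94. Dropping the intensity trend, leaving out dim or _x_at probe sets and the replicate block cannot change a log2 difference, by construction. As the ID2 value chose the family, neither its kept sign nor the calls that follow support it. The number of family probe sets called was 1, and it was 0 without the intensity trend, with median centring and with a floor at the 20th percentile. Leaving out 1 array gave 0 to 1, with 1 only without FOXA1 transfected array 3. Over all probe sets 32 were called, and 1 without the intensity trend, 7 with median centring, 174 with dim probe sets left out, and 4 to 76 without 1 array (76 without FOXA1 transfected array 3). Of list genes 0 were called, and 1 with dim probe sets left out (ELK1, adjusted p = 0.0266 from limma). With the replicate number as a block, 85 probe sets were called over all, ID2 among them, and 2 list genes (ELK1 and RBL2). Replicate numbers were not used as pairs, since they are not stated to pair cultures. Deviations of same-numbered arrays correlated at 0.0439 to 0.164, and all 6 arrays correlated best with their own number. The deviations were taken within each group of 3 arrays, so these correlations are tied to one another and are not 6 separate matches. Whether the number marks paired cultures or another shared step cannot be told from them. Of 436 recomputed differences of members, 11 moved by more than the SD between arrays, all 11 under median centring. A turn of sign within that SD was not counted as moved. For example, 209291_at of ID4 kept its sign in 7 of 13 settings, and 213891_s_at and 203753_at of TCF4 in 9 of 13 each. ID1 kept its sign in 13 of 13. The 436 include those settings that cannot change a difference, so the count overstates how stable the differences are. Taking the median over the probe sets of a gene in place of its brightest gave ID2 0.62 and TCF3 0.17. It gives no p, so no count of list genes was made with it. Why the settings differ was not tested.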
